A study of Rattus norvegicus with 91 samples.

Results

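The 7 genes described here differed between alcohol-selected rat lines in opposite directions in different line pairs. They are Grifin, Elavl1, Pkp1, Amy1, Fcrl2, Chi3l1 and Etfbkmt. The genes were chosen by these same differences, as genes called higher in the high-drinking line of 1 pair and lower in that of another, so their differences are given as a description with a standard error and without a test. All probe sets whose platform annotation gives exactly 1 gene symbol, equal to a member, were taken: 10 probe sets of 31099, for 7 genes of 14217. Elavl1 had 3 of them, Etfbkmt 2 and each other gene 1. A further probe set that lists Amy1 together with Amy2a3 was left out by this rule.

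The tissue was the ventral tegmental area, a part of the midbrain whose dopamine neurons send axons to the nucleus accumbens and the prefrontal cortex, and each rat gave 1 Affymetrix array. Each of the 5 pairs holds a line selectively bred for high and a line bred for low alcohol consumption: HAD1 (8 rats) and LAD1 (10), HAD2 (8) and LAD2 (9), P (9) and NP (10), AA (10) and ANA (10), sP (8) and sNP (9). The labels give the line and an animal number, and they give no treatment, age, sex or alcohol exposure for any group. HAD and LAD are 2 replicate selections, so that HAD1/LAD1 and HAD2/LAD2 can be read as a repeat of the same breeding. Values are log2 signals, on which a difference of 1 is a 2-fold change, and levels were not compared between pairs or between genes.

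The genes belong to unrelated classes. Elavl1 (also HuR) encodes an RNA-binding protein that holds on to AU-rich elements of messenger RNAs and protects many of them from decay. Etfbkmt (also Mettl20) encodes a mitochondrial methyltransferase that modifies lysines of the beta subunit of the electron transfer flavoprotein, which passes electrons from fatty acid and amino acid oxidation to the respiratory chain. Pkp1 encodes plakophilin, an armadillo-repeat protein of the desmosomes that join epithelial cells. Chi3l1 encodes a secreted chitinase-like protein that binds but does not cut chitin and is made by astrocytes and macrophages in inflamed tissue. Fcrl2, which RefSeq also lists as Fcrls and Msr2, encodes a receptor of the immunoglobulin superfamily related to Fc receptors. Amy1 encodes an amylase, the starch-cutting enzyme of saliva, and Grifin a galectin-related protein known from lens fibre cells.

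The values that chose the genes came from 1 limma fit of 10 line means over 91 arrays, with 11082 genes tested. At a Benjamini-Hochberg adjusted p under 0.05, 3.85% of the tested genes were called in HAD1/LAD1, 5.46% in HAD2/LAD2 and 2.94% in AA/ANA. In P/NP and in sP/sNP limma called 0 genes, which is 0% in both. At an unadjusted p under 0.05 it gave 709 genes in P/NP and 124 in sP/sNP, where 554 would be expected at random. The fit used 1 spread per gene for all lines. The median standard deviation of the tested genes was 0.102 in sP and 0.0968 in sNP, against 0.125 to 0.171 in the other lines. The 0 calls in sP/sNP therefore do not show its lines to be alike, and why so few genes passed was not tested. Across the 5 pairs 92 genes (0.83%) were called in opposite directions in at least 2 pairs, and 59 (0.532%) were called in opposite directions in HAD1/LAD1 and HAD2/LAD2. The members are 7 of the 9 genes of these 92 with the widest range between their highest and lowest difference. That range runs from 4.22 for Grifin down to 1.78 for Etfbkmt, with Pnlip (2.38) and Ccdc77 (2.02) between them. The next gene, Tstd1, had a range of 1.63, and the median of the other reversing genes was 0.78.

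Some arrays went against their labels, and many differences that rest on them are given with and without them. Standard errors of differences over all arrays of a pair use 1 spread shared by all 10 lines. Those without an array use the arrays of the pair alone, so the 2 kinds are not comparable. The array labelled LAD1 37 lay on the HAD1 side of the midpoint between the line means at all 7 genes, and no other HAD or LAD array crossed the midpoint at more than 2. When the value distributions of the arrays were cut into 5 sets, the arrays AA 1, AA 19 and ANA 20 lay with arrays of other pairs: AA 1 with those labelled P and NP, AA 19 and ANA 20 with those labelled sP and sNP. The sets outside HAD and LAD then held 20, 17 and 19 arrays, against 19 labelled P/NP, 20 labelled AA/ANA and 17 labelled sP/sNP, so the labels of some of these 56 arrays may not hold and their values are given for the arrays as labelled. The dopamine neuron marker Th, which encodes tyrosine hydroxylase, had a median of 14.08 in P and 13.65 in NP. It reached down to 9.12 on P 10 and 8.23 on NP 8.

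**Figure D1:**
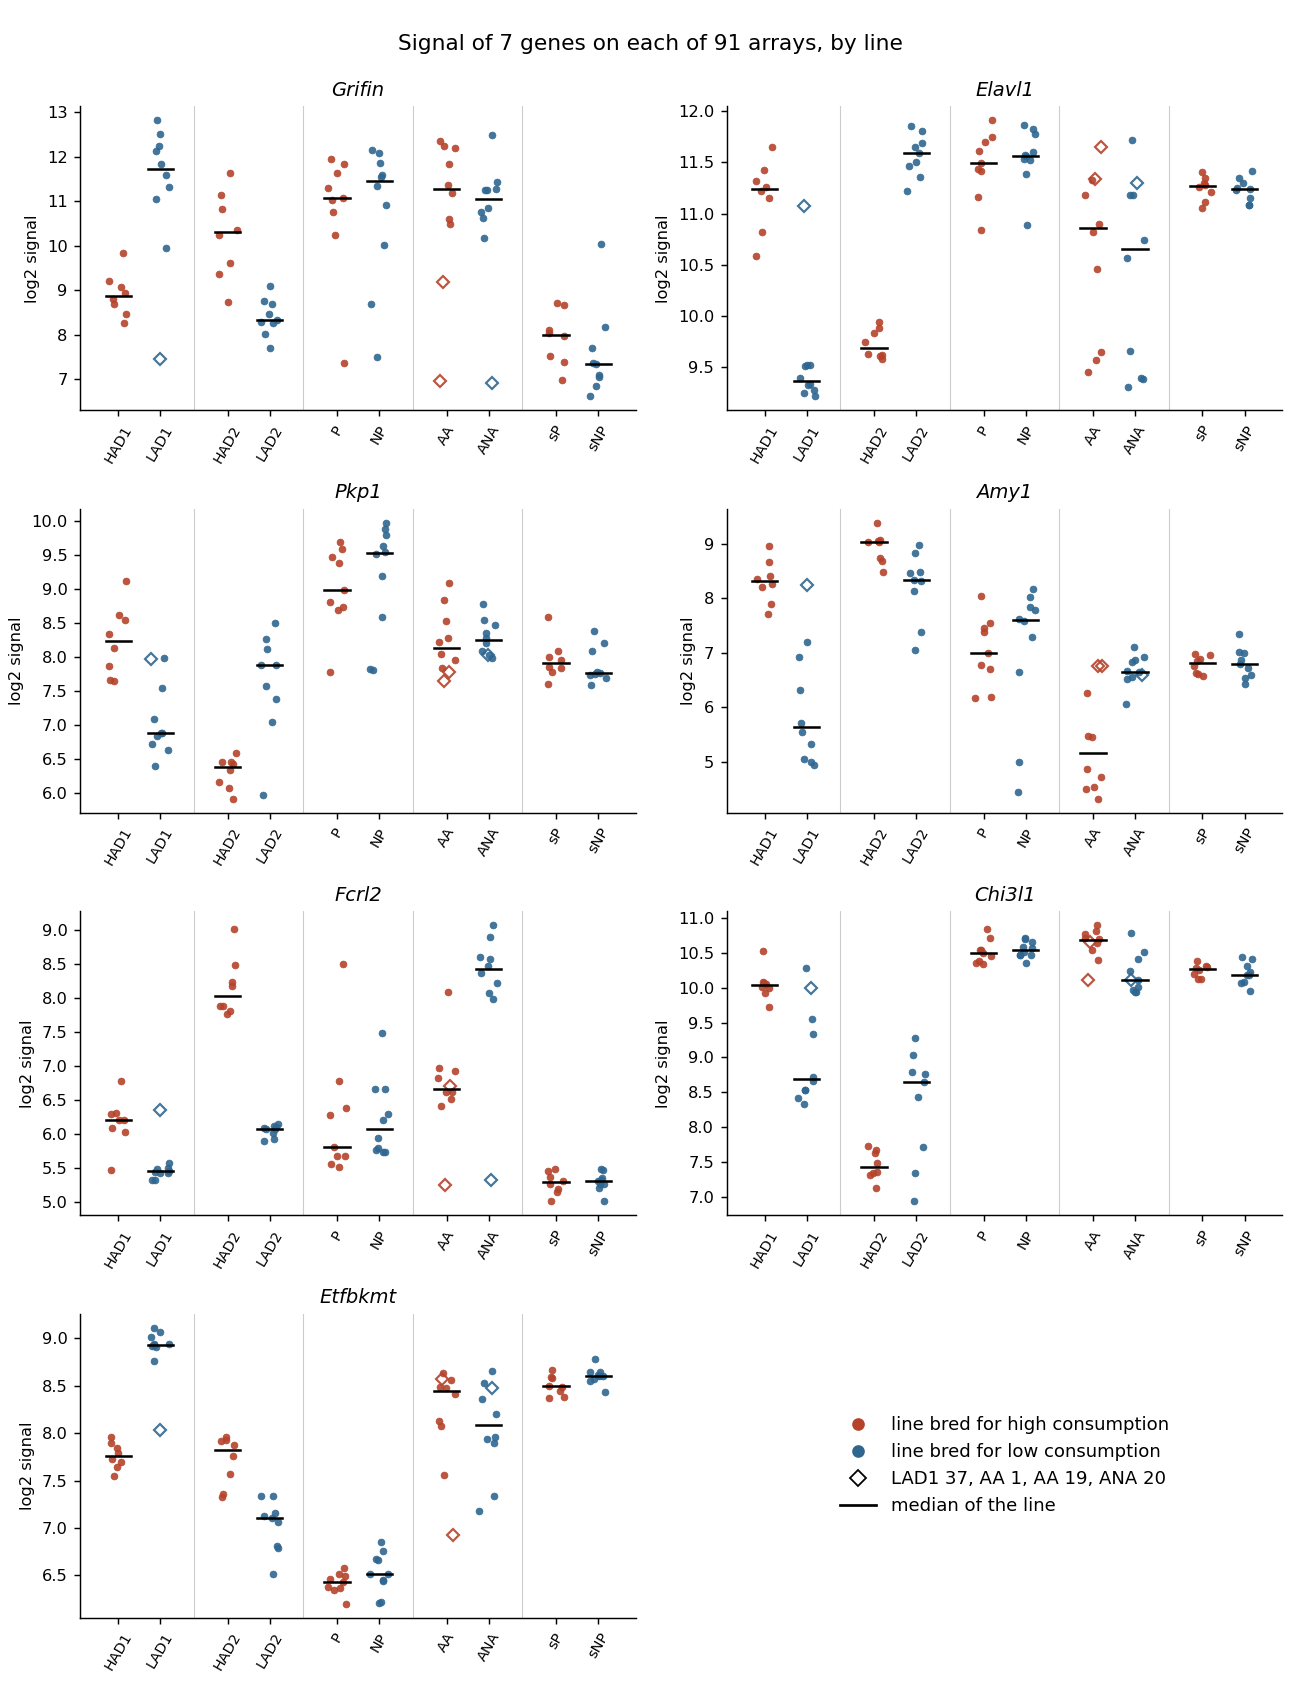
Log2 signal (vertical axes) of the highest probe set of each of 7 genes on 91 arrays, by line (horizontal axes), with the line median as a bar. Open diamonds are LAD1 37, AA 1, AA 19 and ANA 20. For Elavl1 the HAD1 arrays lie above all LAD1 arrays but 1, and the HAD2 arrays below all LAD2 arrays. The axes of the genes differ, and levels are not comparable between pairs.

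Elavl1 differed in opposite directions in the 2 HAD/LAD pairs, with 1 LAD1 array overlapping HAD1 and no overlap between HAD2 and LAD2. Its brightest probe set (1391743_at) was measured at 10.59 to 11.65 in HAD1 (median 11.24), and at 9.22 to 11.08 in LAD1 (median 9.37). The highest LAD1 value is that of LAD1 37, and the other 9 LAD1 arrays reach no higher than 9.52. In HAD2 the signal was 9.58 to 9.94 (median 9.69), and in LAD2 it was 11.22 to 11.86 (median 11.59), so that all HAD2 arrays lay below all LAD2 arrays with a gap of 1.28. The high line was thus higher by 1.63 ± 0.226 (SE) in HAD1/LAD1, a 3.1-fold difference, and 3.57-fold lower in HAD2/LAD2 (-1.84 ± 0.232). Without LAD1 37 the first difference was 1.80 ± 0.119, with no overlap between the lines.

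The arrays labelled AA and ANA fell on either side of a gap at this probe set, in both lines. In AA, 3 arrays lay at 9.46 to 9.65 and 7 at 10.46 to 11.65. In ANA, 4 arrays lay at 9.31 to 9.66 and 6 at 10.57 to 11.71. The difference of the line means, 0.19 ± 0.213, was small beside this spread within each line, and it was 0.07 ± 0.414 without the 3 arrays that lay with other pairs. The widest gap between arrays in order of signal was 0.81 in AA and 0.91 in ANA. It was 0.32 in P, 0.50 in NP, 0.09 in sP and 0.08 in sNP.

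The step of Elavl1 depended on the probe set. The second probe set (1375892_at) gave 8.85 to 9.64 in HAD1 (median 9.43) and 9.14 to 9.69 in LAD1 (median 9.51). In HAD2 it gave 9.37 to 9.82 (median 9.44) and in LAD2 9.21 to 9.69 (median 9.42). The lines overlapped in both pairs, and the differences were -0.11 ± 0.0714 and 0.06 ± 0.0732. The third and dimmest probe set (1393188_at) followed the first in direction, with 5.16 to 5.57 in HAD1 (median 5.34) against 4.74 to 5.72 in LAD1 (median 4.92). In HAD2 it lay at 5.35 to 5.75 (median 5.52), below all LAD2 arrays at 5.85 to 6.10 (median 6.01). Its differences were 0.40 ± 0.119 and -0.47 ± 0.122, smaller than those of the first probe set. The line means of the third probe set ran from 4.97 in LAD1 to 6.88 in NP. All lay below 7.02, the filter value that the highest line mean of a tested gene had to reach. What this probe set shows therefore rests on low signals. The 3 AA arrays and 4 ANA arrays below the gap at the first probe set were also the lowest of their lines at the third, at 5.36 to 5.59 in AA and 5.38 to 5.82 in ANA. The mean of all 3 probe sets differed by 0.64 in HAD1/LAD1 and by -0.75 in HAD2/LAD2.

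**Figure D2:**
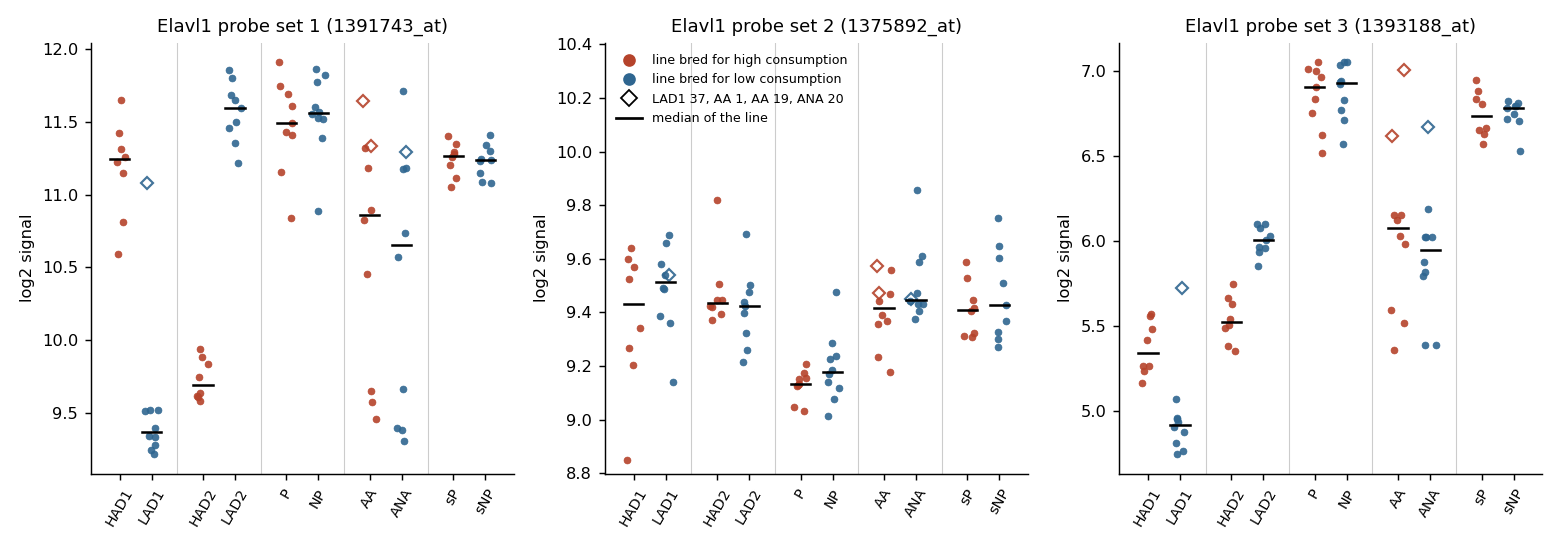
Log2 signal (vertical axes, each with its own scale) of the 3 Elavl1 probe sets by line, with the line median as a bar. The first and the third probe set step in opposite directions in HAD1/LAD1 and HAD2/LAD2. At the second the 4 HAD and LAD medians lie between 9.42 and 9.51. All line means of the third lie below the filter value of 7.02.

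Pkp1 and Chi3l1 were both higher in HAD1 than in LAD1 and lower in HAD2 than in LAD2. Pkp1 (1385182_at) was measured at 7.65 to 9.11 in HAD1 (median 8.23) and 6.41 to 7.98 in LAD1 (median 6.89). In HAD2 it was at 5.92 to 6.60 (median 6.39) and in LAD2 at 5.97 to 8.50 (median 7.88). The lines overlapped in both pairs, and in HAD2/LAD2 the overlap came from the single array LAD2 15 at 5.97. The differences were 1.14 ± 0.243, a 2.21-fold excess in HAD1, and -1.32 ± 0.249, a 2.5-fold deficit in HAD2. The Pkp1 mean of HAD2 (6.31) was below the filter value of 7.02, and that of LAD1 (7.1) was just above it. The lower line of each difference therefore had a low signal.

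Chi3l1 (1392171_at) was at 9.72 to 10.52 in HAD1 (median 10.03) and at 8.33 to 10.28 in LAD1 (median 8.69). The arrays LAD1 35, 36 and 37 lay on the HAD1 side of the midpoint. In HAD2 the signal was 7.12 to 7.73 (median 7.42), and in LAD2 it was 6.93 to 9.28 (median 8.65), where LAD2 15, 17 and 20 lay on the HAD2 side. The differences were 1.01 ± 0.18 and -0.87 ± 0.184. The standard deviation was 0.704 in LAD1 and 0.808 in LAD2, against 0.225 in HAD1 and 0.208 in HAD2. In the lines outside HAD and LAD it was 0.0951 to 0.284, and that low spread makes these shared standard errors smaller. Chi3l1 was also 0.42 ± 0.17 higher on the arrays labelled AA, at 10.12 to 10.90 (median 10.68), than on those labelled ANA, at 9.94 to 10.79 (median 10.12). That difference was not among the called ones. It was 0.47 ± 0.118 without the 3 arrays that lay with other pairs.

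Some arrays departed from their line at both genes. LAD1 36, LAD1 37 and LAD2 15 lay beyond the midpoint at both, while LAD1 35, LAD2 17 and LAD2 20 did so at Chi3l1 alone and HAD1 25 and HAD1 30 at Pkp1 alone. LAD1 36 was the highest LAD1 array at Pkp1 (7.98) and at Chi3l1 (10.28), and LAD2 15 was the lowest LAD2 array at Pkp1 and the second lowest at Chi3l1 (7.34). After the mean of its line was subtracted from each array, Pkp1 and Chi3l1 had a Pearson correlation of 0.74 (Spearman 0.76) over the 35 HAD and LAD arrays. Without the 2 arrays farthest from the median of Pkp1, LAD2 15 and LAD1 36, Pearson's r was 0.67. It was 0.71 over the 34 arrays without LAD1 37, 0.81 in the 17 of HAD1/LAD1 and 0.65 in the 17 of HAD2/LAD2. This pair was picked after its values were seen, the arrays of a pair share their processing, and the correlations are a description. Over the 34 arrays Grifin and Etfbkmt had an r of -0.56, and all other pairs of members were at 0.42 or below in size. Within single line pairs other members reached similar values. In HAD1/LAD1 r was 0.71 for Grifin and Amy1 and 0.69 for Elavl1 and Fcrl2. In HAD2/LAD2 it was -0.67 for Grifin and Etfbkmt, -0.62 for Grifin and Fcrl2 and 0.58 for Pkp1 and Amy1.

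**Figure D3:**
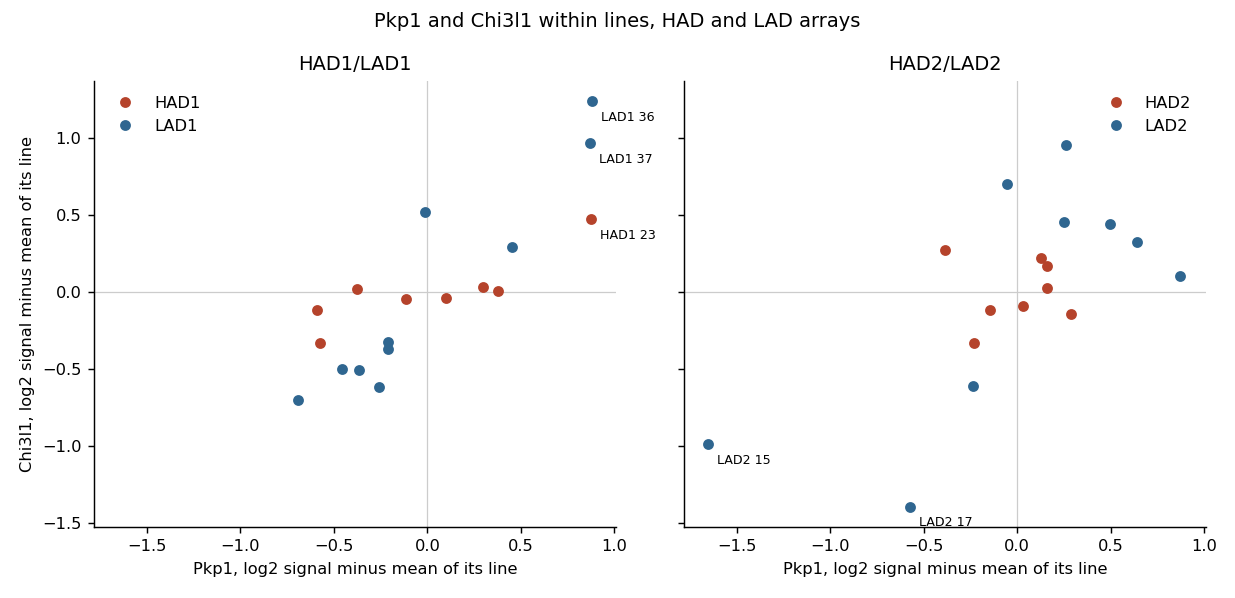
Log2 signal of Chi3l1 (vertical axis) against that of Pkp1 (horizontal axis), each minus the mean of its line, for the HAD1/LAD1 arrays (left) and the HAD2/LAD2 arrays (right). LAD1 36 and 37 lie high and LAD2 15 and 17 low at both genes.

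Both genes lie on chromosome 13, with 18 tested genes between them in the RefSeq gene order. Of these 18 genes, a stretch chosen after the correlation was seen, limma called 3 in HAD1/LAD1, which is 16.7% against 3.85% of all tested genes. All 3 were higher in HAD1: Csrp1 (0.40 ± 0.0746, adjusted p = 0.000115), Ipo9 (0.32 ± 0.0455, adjusted p = 2.21e-07) and Ptpn7 (0.23 ± 0.0623, adjusted p = 0.0183). In HAD2/LAD2 it called 1 (5.56% against 5.46%), Adipor1, in the direction opposite to both members (0.17 ± 0.0423, adjusted p = 0.00365). In AA/ANA it called 2 (11.1% against 2.94%), with Lmod1 lower in AA (-0.31 ± 0.074, adjusted p = 0.00557) and Ipo9 higher (0.19 ± 0.0429, adjusted p = 0.00224). The median size of the 18 differences was 0.07 and 0.04 in the 2 pairs, near the 0.05 and 0.06 of all tested genes.

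Promoters are shown for these 2 genes, which share the direction of their differences in both HAD/LAD pairs, and for Elavl1, which shares it with them. The windows of RefSeq's GRCr8 assembly run from 250 bases before to 50 bases after each gene's start, on the gene's strand. Capitals mark matches, on either strand, to CCAAT (present in 37.5% of all 33469 rat promoter windows of this length) and GGGCGG (33.1%). TATAAA (14.2%) was also searched and has no match in these 3 windows, and no matches overlap.
Elavl1, chr12:7482576-7482875, minus strand: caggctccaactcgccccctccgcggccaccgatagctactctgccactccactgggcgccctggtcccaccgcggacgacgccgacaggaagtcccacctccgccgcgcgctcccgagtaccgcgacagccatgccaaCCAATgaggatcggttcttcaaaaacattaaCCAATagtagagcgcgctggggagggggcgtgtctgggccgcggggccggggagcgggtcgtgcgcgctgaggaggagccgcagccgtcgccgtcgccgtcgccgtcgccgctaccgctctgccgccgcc
Pkp1, chr13:49909113-49909412, minus strand: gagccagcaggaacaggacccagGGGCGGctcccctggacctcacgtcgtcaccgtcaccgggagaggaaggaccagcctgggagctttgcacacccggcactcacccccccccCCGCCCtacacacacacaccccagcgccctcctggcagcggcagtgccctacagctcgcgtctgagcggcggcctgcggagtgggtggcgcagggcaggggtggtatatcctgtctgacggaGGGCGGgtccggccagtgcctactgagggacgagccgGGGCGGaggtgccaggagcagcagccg
Chi3l1, chr13:48193589-48193888, plus strand: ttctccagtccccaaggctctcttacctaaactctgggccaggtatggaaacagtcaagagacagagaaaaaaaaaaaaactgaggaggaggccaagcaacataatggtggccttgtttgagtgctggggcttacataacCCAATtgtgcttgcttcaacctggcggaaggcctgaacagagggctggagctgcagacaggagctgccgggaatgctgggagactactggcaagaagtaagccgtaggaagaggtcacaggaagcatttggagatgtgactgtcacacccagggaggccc
The windows have little in common by these measures. That of Elavl1 holds 41 CG pairs, and 97.6% of all windows hold as many or fewer. Those of Pkp1 and Chi3l1 hold 22 and 3, against a median of 7 over all windows. Elavl1 has 2 matches to CCAAT, Chi3l1 has 1, and Pkp1 has 4 to GGGCGG. A match describes the letters of the window and says nothing about binding. Grifin and Amy1 also have windows in the table, while Fcrl2 and Etfbkmt are named only.

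Grifin and Etfbkmt ran the other way round: both were lower in HAD1 than in LAD1 and higher in HAD2 than in LAD2. Etfbkmt (1376200_at) was at 7.55 to 7.96 in HAD1 (median 7.76), below all LAD1 arrays at 8.03 to 9.11 (median 8.93). In HAD2 it was at 7.32 to 7.96 (median 7.82) and in LAD2 at 6.52 to 7.34 (median 7.10), with an overlap of only 0.02 between the lines. Its differences were -1.10 ± 0.143 and 0.68 ± 0.146, the second a 1.6-fold excess in HAD2. Without LAD1 37, the lowest of its line, the first was -1.19 ± 0.0574.

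The second Etfbkmt probe set (1380668_at) was dim and its differences were smaller. It gave 5.15 to 5.56 in HAD1 against 5.39 to 5.65 in LAD1, a difference of -0.21 ± 0.0989. In HAD2/LAD2 the lines overlapped at 5.40 to 5.72 and 5.31 to 5.80, with a difference of 0.05 ± 0.101. The mean of both probe sets differed by -0.66 in HAD1/LAD1 and by 0.37 in HAD2/LAD2.

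Grifin (1386936_at) had the largest single difference, in HAD1/LAD1, and also the widest spread. In HAD1 its signal was 8.26 to 9.84 (median 8.88), and in LAD1 it was 7.45 to 12.83 (median 11.72). LAD1 37 gave the lowest LAD1 value, below every HAD1 array, and the other 9 LAD1 arrays lay at 9.95 or above, beyond all of HAD1. In HAD2 the signal was 8.73 to 11.64 (median 10.31), and in LAD2 it was 7.70 to 9.10 (median 8.34), where HAD2 10 was the only HAD2 array on the LAD2 side of the midpoint. The differences were -2.38 ± 0.577, or 5.2-fold, and 1.84 ± 0.591, or 3.57-fold, and without LAD1 37 the first was -2.81 ± 0.348. Grifin stayed among the reversing genes in 31 of 91 fits that each left out 1 array, and in 5 of 10 other alternatives. The other 6 genes stayed in all 91.

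In Amy1 and Fcrl2 the opposite directions came from AA/ANA and 1 HAD/LAD pair. Amy1 (1370359_at) was at 7.72 to 8.95 in HAD1 (median 8.31) and at 4.95 to 8.24 in LAD1 (median 5.63), a difference of 2.28 ± 0.341 or 4.85-fold. Without LAD1 37, at 8.24 the highest of its line, the LAD1 arrays ended at 7.20 and the lines did not overlap. On the arrays labelled AA the signal was 4.32 to 6.76 (median 5.15), and on those labelled ANA it was 6.07 to 7.11 (median 6.65). The Amy1 means of AA (5.36), ANA (6.68) and LAD1 (6.03) were low, below the filter value of 7.02. A gene was tested where its highest line mean reached that value, and Amy1 did so through other lines.

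The AA/ANA difference of Amy1 was -1.31 ± 0.321, or 2.48-fold lower in AA. AA 1 and AA 19, which lay with other pairs, gave 2 of the 3 AA values beyond the midpoint, and without them and ANA 20 the difference was -1.67 ± 0.243. In HAD2/LAD2 Amy1 leaned the same way as in HAD1/LAD1, at 8.48 to 9.38 (median 9.03) against 7.05 to 8.98 (median 8.33). That difference, 0.71 ± 0.349, was not among the called ones.

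Fcrl2 (1395126_at) separated HAD2 from LAD2 with the widest gap of any member. It was at 7.76 to 9.02 in HAD2 (median 8.03) and at 5.90 to 6.15 in LAD2 (median 6.08), a gap of 1.62 between the lines and a difference of 2.1 ± 0.278 or 4.3-fold. In AA/ANA the order was reversed, with 5.26 to 8.09 on the arrays labelled AA (median 6.66) and 5.33 to 9.07 on those labelled ANA (median 8.43). The lowest array of each line was one that lay with other pairs, AA 19 at 5.26 and ANA 20 at 5.33, and AA 5 at 8.09 lay among the ANA arrays. The AA/ANA difference was -1.47 ± 0.256, or 2.77-fold, and -1.60 ± 0.217 without the 3 arrays.

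In HAD1/LAD1 Fcrl2 leaned as in HAD2/LAD2, by 0.64 ± 0.271, and was not called. The HAD1 arrays were at 5.47 to 6.78 (median 6.21) and the LAD1 arrays at 5.33 to 6.36 (median 5.46). Apart from LAD1 37 at 6.36, the LAD1 arrays lay within 5.33 to 5.58, and 7 of 8 HAD1 arrays were above them. Without LAD1 37 the difference was 0.73 ± 0.124. The Fcrl2 means of HAD1 (6.17) and LAD1 (5.54) were both below the filter value of 7.02, as were those of LAD2 (6.05) and AA (6.69). Those of P (6.25), NP (6.23), sP (5.29) and sNP (5.3) were below it too. Only HAD2 and ANA (both 8.16) reached it, so Fcrl2 was tested through the 2 lines whose high signal makes its reversal.

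In P/NP and sP/sNP the line means showed no comparable difference at any of the 10 probe sets. The differences of the means ran from -0.16 to 0.03 in P/NP and from -0.16 to 0.34 in sP/sNP, and the lines overlapped at every probe set. Some line medians differed more. In P/NP their differences were -0.6 for Amy1, -0.54 for Pkp1 and -0.38 for Grifin, and at most 0.27 in size at the other probe sets. In sP/sNP they were 0.67 for Grifin and at most 0.17 in size at the others. The spread was wide on the arrays labelled P and NP. Grifin was at 7.36 on P 10, 7.50 on NP 10 and 8.68 on NP 9, and at 10.03 or above on the other arrays of the pair. The same 3 arrays gave the 3 lowest Pkp1 values of this pair, 7.79 to 7.83. P 10 also had the highest Fcrl2 signal of the pair, at 8.50 against 7.48 on the next array. In sP/sNP, sNP 4 had a Grifin signal of 10.05 while the other arrays of the pair ended at 8.72.

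**Figure D4:**
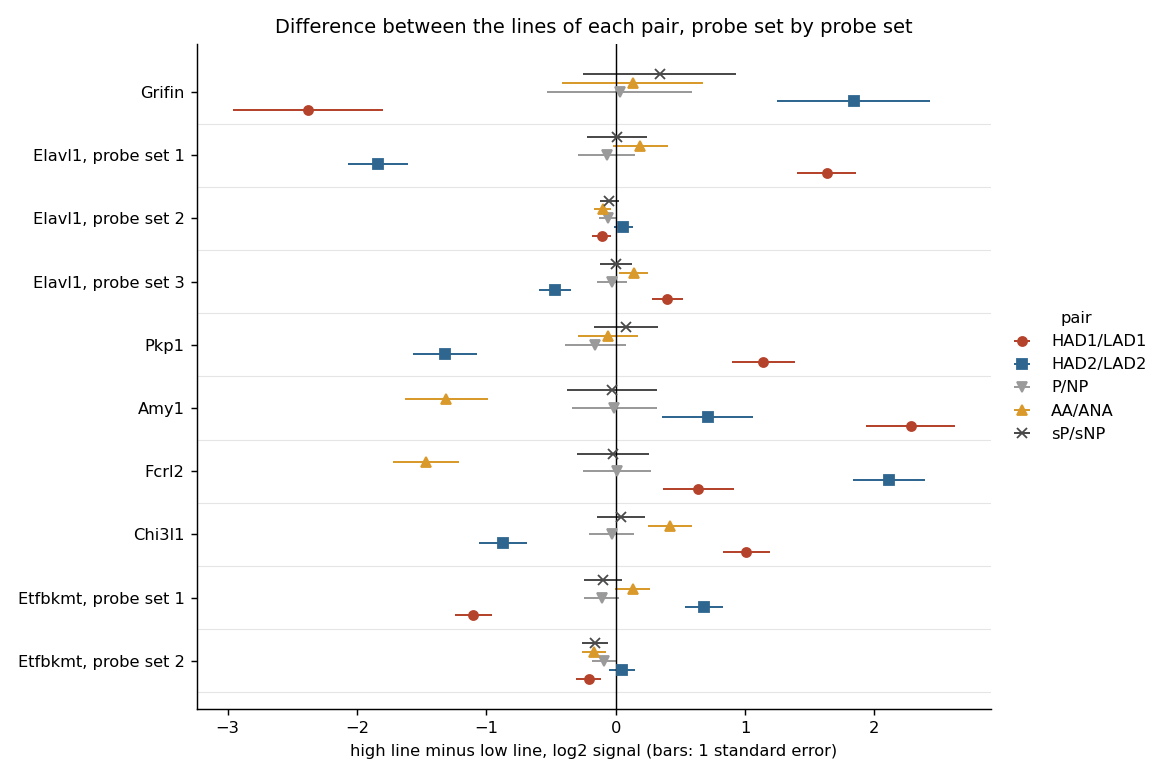
Difference of the high minus the low line (horizontal axis, log2 signal, bars of 1 standard error) in each of the 5 pairs for the 10 probe sets (vertical axis). In HAD1/LAD1 and HAD2/LAD2 5 genes lie on opposite sides of 0, in AA/ANA Amy1 and Fcrl2 lie below 0, and in P/NP and sP/sNP all values lie between -0.16 and 0.34.

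With the arrays as labelled, the members varied more within lines than most genes. The standard deviations include LAD1 37, AA 1, AA 19 and ANA 20 and were not computed without them. How much of the spread rests on these arrays was not tested. In 64 of 70 combinations of gene and line the standard deviation of the member was above the median standard deviation of all tested genes in that line, which was 0.0968 to 0.171. The median ratio was 2.91 over the 70 combinations and 8.73 for Grifin. It was 1.59 for Etfbkmt, 1.61 for Chi3l1 and 1.77 for Elavl1. Of Elavl1's lines, ANA and AA stood out at 7.32 and 5.55 times the median standard deviation, and sP at 1.13 times was near it. Without LAD1 37 the LAD1 arrays spanned 9.22 to 9.52 for Elavl1, 5.33 to 5.58 for Fcrl2 and 8.76 to 9.11 for Etfbkmt. They still spanned 9.95 to 12.83 for Grifin, 6.41 to 7.98 for Pkp1, 4.95 to 7.2 for Amy1 and 8.33 to 10.28 for Chi3l1.

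For each member the 3 genes with the most similar pattern over the arrays were taken by Pearson correlation. The arrays were kept as labelled. Subtracting the mean of the pair leaves the differences that chose the members in these correlations. Over all 91 arrays, after the mean of the pair was subtracted, Elavl1 was most like Amd1, which encodes the adenosylmethionine decarboxylase of polyamine synthesis (r = 0.72), followed by Cpne3 and Ak3 (both 0.60). Amd1 differed by 0.53 in HAD1/LAD1 and by -0.53 in HAD2/LAD2. With the mean of the line subtracted instead, r was 0.30 for Amd1, 0.28 for Cpne3 and 0.19 for Ak3. Over the 35 HAD and LAD arrays alone Mtrfr (0.91), Amd1 (0.89) and Bmp6 (0.85) were most like Elavl1. With the line mean subtracted these were 0.55, 0.50 and 0.52. Pkp1 and Chi3l1 were the nearest to each other in both sets of arrays, with r of 0.70 and 0.86. Next to Pkp1 over all arrays were Cox18 and Hebp2 (both 0.69).

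Of the genes that reversed through AA/ANA, Amy1 was most like Dnm1l (0.69), Nrg1 and Afg3l1 (both 0.67), and Fcrl2 was most like Psmb8, a subunit of the immunoproteasome (0.64), Kif15 (0.62) and Aadat (0.60). Psmb8 differed by 0.54 in HAD2/LAD2 and by -0.47 in AA/ANA. Etfbkmt was most like Mis18a (0.64), Epm2aip1 and Brwd1 (both 0.63). Grifin was most like Tpgs2 (0.77), Sars1 and Prxl2b (both 0.73), whose own differences were no larger than 0.26 in size in any pair. These correlations share the differences between lines as well as the processing of the arrays of a pair. With the line mean subtracted, r for the first-named genes was 0.61 for Dnm1l, 0.49 for Psmb8, 0.36 for Mis18a and 0.77 for Tpgs2.

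The steps did not extend to most genes beside the members. Of 67 tested neighbours, the 5 before and 5 after each member in gene order (7 in all for Etfbkmt), limma called 6 in HAD1/LAD1, which is 8.96% against 3.85% of all tested genes. It called 1 in HAD2/LAD2 (1.49% against 5.46%) and 1 in AA/ANA (1.49% against 2.94%). No neighbour was called in opposite directions in 2 pairs. The largest neighbouring difference lay beside Elavl1, where Cers4, a ceramide synthase, rose in HAD1 against LAD1 by 0.73 ± 0.12 (adjusted p = 9.03e-06). Cers4 differed by -0.19 ± 0.123 in HAD2/LAD2 and was not called there (adjusted p = 0.511). On the other side of Elavl1, Timm44, a part of the mitochondrial import motor, fell in HAD1 by 0.30 on the log2 scale (adjusted p = 0.00112).

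Near Etfbkmt, Rps4y2 and Resf1 fell in HAD1/LAD1 (-0.57 ± 0.148 and -0.32 ± 0.0666), in the direction of Etfbkmt. Csrp1 and Ipo9 beside Pkp1 and Adipor1 beside Chi3l1 were the other called neighbours, and Ipo9 also rose in AA/ANA by 0.19. No neighbour of Grifin, Amy1 or Fcrl2 was called in any pair. Grifin and Elavl1 share chromosome 12, with 73 tested genes between them, and Amy1 and Fcrl2 share chromosome 2, with 228 between them.

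**Figure D5:**
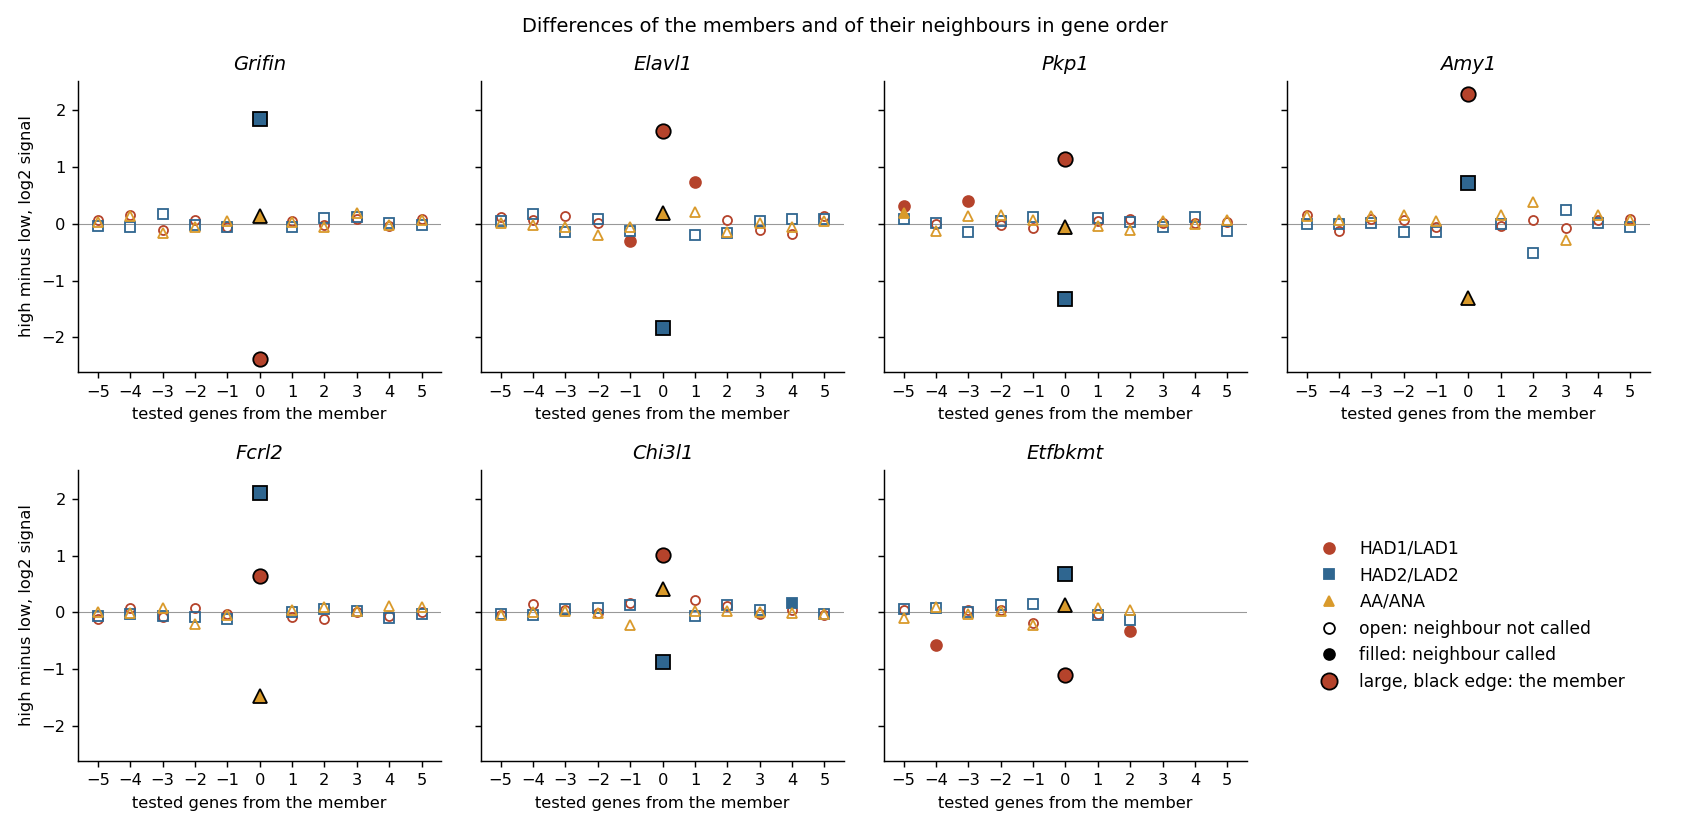
High minus low difference (vertical axes, log2 signal) of each member at 0 and of its neighbouring tested genes by their place in gene order (horizontal axes), in HAD1/LAD1, HAD2/LAD2 and AA/ANA. Large symbols are the members and filled small ones the called neighbours, of which Cers4 at 0.73 is the highest.

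Of 59 other tested genes in 7 lists of the members' families, 2 were called in HAD1/LAD1 (3.39% against 3.85% of all tested genes). In HAD2/LAD2 8 were called (13.6% against 5.46%), 5 higher and 3 lower, and in AA/ANA 1 was called (1.69% against 2.94%). In the galectin list, with 5 tested genes, only Lgals3bp reversed as Grifin did. It encodes no galectin but a secreted protein that binds galectins. Of all tested genes, 0.532% were called in opposite directions in these 2 pairs. Lgals3bp fell in HAD1/LAD1 (-0.37 ± 0.111, adjusted p = 0.0343) and rose in HAD2/LAD2 (0.45 ± 0.113, adjusted p = 0.00485). The median difference of that list was -0.04 and -0.02, against 0.01 and 0.02 over all tested genes.

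Of 13 tested genes for Hu proteins and other binders of AU-rich elements, Celf1 rose in HAD1/LAD1, as Elavl1 was higher there (0.51 ± 0.0871, adjusted p = 2.3e-05). Hnrnpd rose in HAD2/LAD2 (0.26 ± 0.0569, adjusted p = 0.000712), where Elavl1 was lower, and Khsrp rose in AA/ANA (0.36 ± 0.0911, adjusted p = 0.0102). The median of the 13 was 0.07 and 0.02 in the 2 HAD/LAD pairs. Of 16 tested genes around the electron transfer flavoprotein, Etfb, the subunit that Etfbkmt methylates, rose in HAD2/LAD2 (0.24 ± 0.0756, adjusted p = 0.044). In the same pair Acadl and Sardh, dehydrogenases that feed electrons to the flavoprotein, fell (-0.44 ± 0.11 and -0.41 ± 0.0808), as did the calmodulin methyltransferase Camkmt (-0.28 ± 0.0751).

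For the remaining families the calls were single or absent. Gaa, the lysosomal glucosidase of glycogen, rose in HAD2/LAD2 (0.32 ± 0.104, adjusted p = 0.0463) as 1 of 9 tested genes of starch and glycogen breakdown. Ctbs, a lysosomal chitobiase, rose in the same pair (0.27 ± 0.0738, adjusted p = 0.0141) as 1 of 2 of the chitinase family. None of 8 desmosome and armadillo genes and none of 6 Fc receptor genes was called by limma in any pair.

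Marker lists were read for the cell types in which the members are best known. None of 9 tested dopamine neuron markers, 9 astrocyte markers, 3 lens, 2 epithelial, 3 choroid plexus or 6 meningeal markers was called in any pair. The lens and epithelial lists rest on 3 of 12 and 2 of 9 genes on the array, since the others failed the filter on low values. Of 8 microglia and macrophage markers 1 was called in each of 3 pairs. Of all tested genes, 3.85% were called in HAD1/LAD1, 5.46% in HAD2/LAD2 and 2.94% in AA/ANA. Cx3cr1 fell in HAD1/LAD1 (-0.33 ± 0.072), opposite to the lean of Fcrl2 there. P2ry12 rose in HAD2/LAD2 (0.54 ± 0.161) and Lyz2 fell in AA/ANA (-0.35 ± 0.0984), both in the direction of Fcrl2. The median difference of the 8 was 0.1 in HAD1/LAD1, 0.04 in HAD2/LAD2 and 0.02 in AA/ANA, the last opposite in sign to Fcrl2. The mean of these 8 was 8.43 to 8.94 on the HAD2 arrays and 8.43 to 8.77 on the LAD2 arrays, and 8.49 to 9.42 on the AA and 8.49 to 9.32 on the ANA arrays, so the lines that differed at Fcrl2 overlapped. The 7 B lymphocyte markers on the array all failed the filter on low values, with means of 5.32 to 6.02 over the arrays. Of the pancreas and salivary gland markers 2 passed the filter, and Pnlip fell in HAD2/LAD2 (-1.86 ± 0.0975) and rose in AA/ANA (0.52 ± 0.0897), both opposite to the direction of Amy1 there. Of 2 tested liver and kidney enzymes, Slc3a1 was called lower in HAD2/LAD2 (-2.13 ± 0.224). Whether cell content has a part in the members' differences was not tested. In tissue like this, fewer cells of a type and less RNA per cell cannot be told apart.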

How the data were processed

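The deposited values are log2 signals that the authors made with RMA, per the submitters' processing notes. RMA subtracts background, gives the arrays of 1 run the same distribution and reduces the probes of a set to 1 value. Per the labels' protocols, biotin cRNA came from 25 ng of total RNA in 2 amplification cycles. Which arrays were normalized together, and with which version, is not given in the sources used here.

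Names of probe sets came from GEO's platform annotation. For calls, each gene was represented by its single-symbol probe set with the highest mean, and tested if its highest line mean reached 7.02, the 40th percentile of the whole table. Limma 3.58.1 in R 4.3.3 (lmFit, eBayes, 81 residual degrees of freedom) fitted 10 line means with Benjamini-Hochberg adjustment per pair. Standard errors of the members come from a separate fit of the same 10 line means to all 31042 probe sets that are not controls. Those of other genes come from the fit of the 11082 tested genes. Those of values without an array come from the arrays of that pair alone. The number of arrays limits the precision. The fit was tested on simulated data. Python 3.11.15 was used for the rest.

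Neighbours follow the gene order of RefSeq's GRCr8 table, which matched 11046 of the tested genes. All members were named, with the 3 most like genes per member, called neighbours (at most 4 per member) and called genes of the family lists (at most 4 per list and pair). The members and lists were chosen with earlier results of these data known. The replicate numbers of P/NP and sP/sNP were not taken as pairs, since the labels do not say so.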

Additional observations from a re-analysis of the deposited data

Results flagged for a closer look

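Within 100 combinations of probe set and line, 17 had a lowest or highest array set apart from the rest by Dixon's criterion. Chance flags about 1 in 20 groups. LAD1 37 accounts for 4 of them. It was at 11.08 for Elavl1's brightest probe set, with the next LAD1 array at 9.52, and at 5.72 for its dimmest, with the next at 5.07. At Fcrl2 it was the highest of its line at 6.36 and at Etfbkmt's first probe set the lowest at 8.03, where the nearest arrays were at 5.58 and 8.76.

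On the arrays labelled P and NP, P 10 was lowest at Grifin (7.36, next 10.24) and highest at Fcrl2 (8.50, next 6.79). NP 4 was highest at Fcrl2 (7.48), and NP 7 was lowest at Elavl1's brightest probe set (10.89). ANA 20, which lay with arrays of another pair, was lowest at Grifin (6.93, next 10.18) and at Fcrl2 (5.33, next 7.99).

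Of the remaining arrays, sNP 4 was highest at Grifin (10.05, next 8.18) and HAD1 23 at Chi3l1 (10.52). Elavl1's second probe set had HAD2 9 highest at 9.82 and ANA 8 highest at 9.86, and its dimmest had sNP 2 lowest at 6.53. Etfbkmt's second probe set had HAD2 7 highest at 5.72 and LAD2 18 highest at 5.80.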

How the results depend on the processing

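No difference of a member that was among the called ones changed sign under any alternative run, and leaving out 1 array moved none of them by more than 1.5 times. The number of genes called in AA/ANA fell from 326 to 153 with the pair fitted alone, and ran from 239 (without AA 15) to 485 (without ANA 20) with 1 array left out. Leaving out 1 array gave 361 to 580 genes in HAD1/LAD1, the highest without LAD1 37, and 516 to 671 in HAD2/LAD2. It gave 80 to 108 reversing genes, of which 50 to 69 reversed between the HAD/LAD pairs, and 0 genes in P/NP and sP/sNP. Over the other alternatives the reversing genes numbered 71 to 113. Averaging the probe sets of a gene moved Elavl1 to 0.64 and -0.75, and Etfbkmt to -0.66 and 0.37, in HAD1/LAD1 and HAD2/LAD2. This follows from the smaller differences of their dimmer probe sets. Grifin was no longer called in HAD2/LAD2 with no filter, quantile normalization, centred arrays, an intensity trend with a robust prior or averaged probe sets, and the cause was not tested. Chi3l1 was not called there with the pair fitted alone, and Fcrl2 was not tested at the filter of the 60th percentile. Fcrl2 was also called in HAD1/LAD1 with the pair fitted alone. Leaving out P 10 and NP 8, chosen after seeing the data for their low Th, gave 0 genes in P/NP.

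With the replicate number as a replicate block, limma called 0 genes in P/NP and 0 in sP/sNP, and the members' differences ran from -0.15 to 0.08 and from -0.10 to 0.28 for the first probe sets. Deviations of arrays with the same number correlated at -0.743 to 0.724 in P/NP, where 6 of 9 pairs were above 0.1, and at -0.35 to 0.253 in sP/sNP, where 1 of 8 was. The numbers were not taken to pair the animals.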
